A study of Mus musculus with 10 samples.

Results

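The autophagy genes described here are 34 genes of the machinery that builds autophagosomes, listed by name and not by their values. They were read in 5 B-cell lymphomas of Emu-myc mice that lack Suv39h1, before and after treatment with Adriamycin (ADR, doxorubicin). A probe set of the array was taken for a gene where the platform annotation gave it that gene's symbol alone. Of several such probe sets the one with the highest mean over the 10 arrays stood for the gene. This gave 33 of the 34 genes a value, out of 18193 genes with a probe set in all; Optn, a cargo receptor, had no probe set named for it and is not analysed here. A gene was tested where its log2 signal exceeded the table's median, 4.43, on at least 5 of 10 arrays. All 33 genes met this filter, 31 of them on all 10 arrays, and so did 11472 genes in all.

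The untreated group and the ADR group hold 5 arrays each. Every lymphoma (lymphoma_5783, lymphoma_7890, lymphoma_9250, lymphoma_1032 and lymphoma_4936) gave 1 untreated array and 1 array of cells kept in 0.05 µg/ml ADR for 5 days, so that both groups hold matched samples of the same tumours. All 10 samples share the Emu-myc transgene, which drives Myc in cells of the B lineage, the Suv39h1-/- genotype, a retrovirally delivered Bcl2 with puromycin selection, and growth on irradiated NIH 3T3 fibroblasts as a feeder layer. No Suv39h1-proficient lymphoma is analysed here, the labels give no age for the mice, and no probe set was named for Suv39h1, so the genotype was not checked on the arrays. ADR is known to drive Bcl2-protected lymphomas that have Suv39h1, a histone methyltransferase, into senescence, and the series asks what it does to lymphomas that lack the enzyme.

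Autophagy encloses cytoplasm in a double membrane and delivers it to the lysosome. The ULK kinase complex starts the process and a class III PI3-kinase complex with Beclin 1 marks the site with PI3P; WIPI proteins read that mark, ATG2 proteins bring in lipid and ATG9 redistributes it between the membrane leaflets. The enzymes ATG7, ATG3 and ATG10 and the ATG12-ATG5-ATG16L1 complex attach proteins of the LC3 and GABARAP families to the growing membrane, where receptors such as p62 (Sqstm1) bind them together with cargo. TFEB is a transcription factor of lysosomal and autophagy genes. Bcl2, which all these cells carry, is known to bind Beclin 1, and autophagy is known to accompany oncogene- and drug-induced senescence in other cells.

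Some features of the arrays touch every value below. The ADR array of lymphoma_1032 had a median signal of 4.15, below the 4.43 to 4.50 of every other array, and over all genes tested the median change in that lymphoma was -0.17, against -0.02 to 0.06 elsewhere. All 7 B-cell markers with a probe set were tested. Their mean log2 signal per array was 7.45 to 9.42 untreated and 6.66 to 9.22 with ADR. It changed by -0.79 in lymphoma_1032, -0.32 in lymphoma_4936, -0.20 in lymphoma_5783, 0.31 in lymphoma_7890 and 0.50 in lymphoma_9250. Of 16 macrophage markers 10 were tested. The mean signal of all 16 was 4.60 to 7.90 untreated and 4.72 to 7.83 with ADR; Cd163 and Vsig4 were below 4.43 on all 10 arrays. The tested macrophage markers changed on average by 1.24 in lymphoma_5783, 1.10 in lymphoma_1032, 0.25 in lymphoma_7890, -0.21 in lymphoma_9250 and 0.24 in lymphoma_4936. Over all 16 the changes were smaller, 0.22 in lymphoma_5783, 0.61 in lymphoma_1032, -0.07 in lymphoma_7890, -0.14 in lymphoma_9250 and 0.11 in lymphoma_4936. The markers did not move together in lymphoma_5783. There 9 of 10 tested ones were higher and Cd14 changed by -1.30. Of those not tested, Mrc1, C1qa, C1qb and C1qc changed there by -2.94, -2.91, -2.40 and -1.30, and Cd163 and Vsig4 by 0.41 and 0.23. Fibroblast markers are relevant because of the feeder layer: 7 of 12 were tested, with an average change of 0.91 in lymphoma_5783, 0.54 in lymphoma_1032, 0.33 in lymphoma_4936, -0.03 in lymphoma_7890 and -0.01 in lymphoma_9250. Over all 12 the change was 0.43 in lymphoma_5783, 0.32 in lymphoma_1032 and 0.17 in lymphoma_4936, with 0.04 and 0.00 in lymphoma_7890 and lymphoma_9250. Mean signals of all 12 were 4.96 to 6.64 untreated and 5.00 to 7.07 with ADR. Neutrophil markers, of which 3 of 10 were tested, had a mean signal of 4.13 to 5.83 untreated and 4.12 to 6.77 with ADR. The tested ones changed by 1.82 in lymphoma_1032 and 0.80 in lymphoma_5783, all 10 by 0.94 and 0.28, and S100a9, Mpo, Camp and Ngp were below 4.43 on all arrays. Plasma cell markers, of which 4 of 5 were tested, had a mean signal of 6.61 to 8.34 untreated and 6.36 to 8.50 with ADR, and the 5 changed by 0.75 in lymphoma_7890, 0.95 in lymphoma_4936, 0.39 in lymphoma_5783, -0.05 in lymphoma_1032 and -0.26 in lymphoma_9250. The 6 T-cell markers had a mean signal of 4.31 to 4.57 untreated and 4.06 to 4.30 with ADR. The part of these cells in the values of autophagy genes was not tested. In bulk RNA, fewer cells of a type and less RNA per cell cannot be told apart.

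RefSeq promoter windows (GRCm38.p6, 250 bases before the start site to 50 after it) were found for 28 of the 34 genes, some with more than 1 start site, 32 windows in all. The letters searched were CACGTG, the palindromic E-box core that TFEB and Myc-Max dimers are both known to bind, which reads the same on both strands. It was found in 4 of 32 windows, 12.5%, against 7.15% of 32851 windows of all genes. The longer TCACGTG, searched on both strands and always overlapping the first, was in 3 of 32, 9.38%, against 3.77%. The windows of Atg3, Atg5 and Atg7 held the E-box before the start site and that of Atg14 across it. Atg3, Atg5 and Atg7 act in the conjugation of LC3. The windows of Atg4b, Atg4c, Atg4d, Atg10 and Atg16l2, also genes of conjugation and LC3 processing, held no CACGTG. The stretches of 60 bases around the matches before the start site are shown 5′ to 3′, with CACGTG in capitals: Atg3 at chr16:45158719-45158778 (+), Atg5 at chr10:44268279-44268338 (+) and Atg7 at chr6:114670937-114670996 (+).
Atg3: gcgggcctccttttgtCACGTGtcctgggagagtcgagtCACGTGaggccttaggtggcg
Atg5: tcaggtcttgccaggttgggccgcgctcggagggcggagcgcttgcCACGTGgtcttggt
Atg7: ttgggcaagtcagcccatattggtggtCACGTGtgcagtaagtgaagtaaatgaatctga

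The windows of Atg2a, Gabarap and Gabarapl1, which were the genes with a higher signal in all 5 lymphomas, held no CACGTG. No match says only that these letters are not in this window. Their 250 bases before the start site are shown 5′ to 3′ with no capitals, since no match was found: Atg2a at chr19:6241418-6241667 (+), Gabarap at chr11:69991120-69991369 (+) and Gabarapl1 at chr6:129532942-129533191 (+).
Atg2a: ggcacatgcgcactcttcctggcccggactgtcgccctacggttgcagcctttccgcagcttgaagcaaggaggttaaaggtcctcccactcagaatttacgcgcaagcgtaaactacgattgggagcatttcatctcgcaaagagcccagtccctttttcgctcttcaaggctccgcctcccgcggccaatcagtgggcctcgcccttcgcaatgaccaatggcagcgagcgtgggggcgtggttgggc
Gabarap: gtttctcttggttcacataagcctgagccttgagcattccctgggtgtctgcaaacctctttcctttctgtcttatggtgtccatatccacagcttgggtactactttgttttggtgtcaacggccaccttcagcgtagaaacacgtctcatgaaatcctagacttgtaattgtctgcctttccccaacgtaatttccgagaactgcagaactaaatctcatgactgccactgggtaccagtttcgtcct
Gabarapl1: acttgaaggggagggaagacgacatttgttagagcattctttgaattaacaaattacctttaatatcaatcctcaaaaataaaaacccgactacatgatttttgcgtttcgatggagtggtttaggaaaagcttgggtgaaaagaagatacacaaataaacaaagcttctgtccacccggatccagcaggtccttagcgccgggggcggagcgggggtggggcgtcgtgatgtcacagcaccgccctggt

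No autophagy gene passed the test between ADR and untreated cells, and most mean changes were small, as they were over all genes. In the paired limma fit 0 of 33 passed an adjusted p of 0.05 in either direction, as did 0 of 11472 genes (0%), and the smallest adjusted p among the 33 was 0.565. Atg2a, Gabarapl1 and Gabarap, 3 of 33, had an unadjusted p below 0.05, all with a higher signal under ADR. Over all genes tested 8.48% reached that p, 3.97% higher and 4.52% lower. The count was 1 of 33 without lymphoma_5783 and without lymphoma_4936, and 2 of 33 without each of the other lymphomas in turn. The mean change was above 0 for 20 of 33 genes, against 44.8% of all genes, and the median of the mean changes was 0.05, against -0.02 over all genes. The mean change was smaller than 0.2 in size for 28 of 33, and its median size was 0.12 against 0.13 for all genes. For 28 of 33 genes the mean change was smaller in size than the SD between the 5 untreated lymphomas. The share of all genes was not computed for either count, so neither is particular to autophagy genes. The SD had a median of 0.28 for the 33 genes and of 0.35 for all genes. That SD is a spread between tumours, which the paired fit takes out. The untreated and ADR signals overlapped for all 33 genes; they were apart for 0.357% of all genes.

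**Figure D1:**
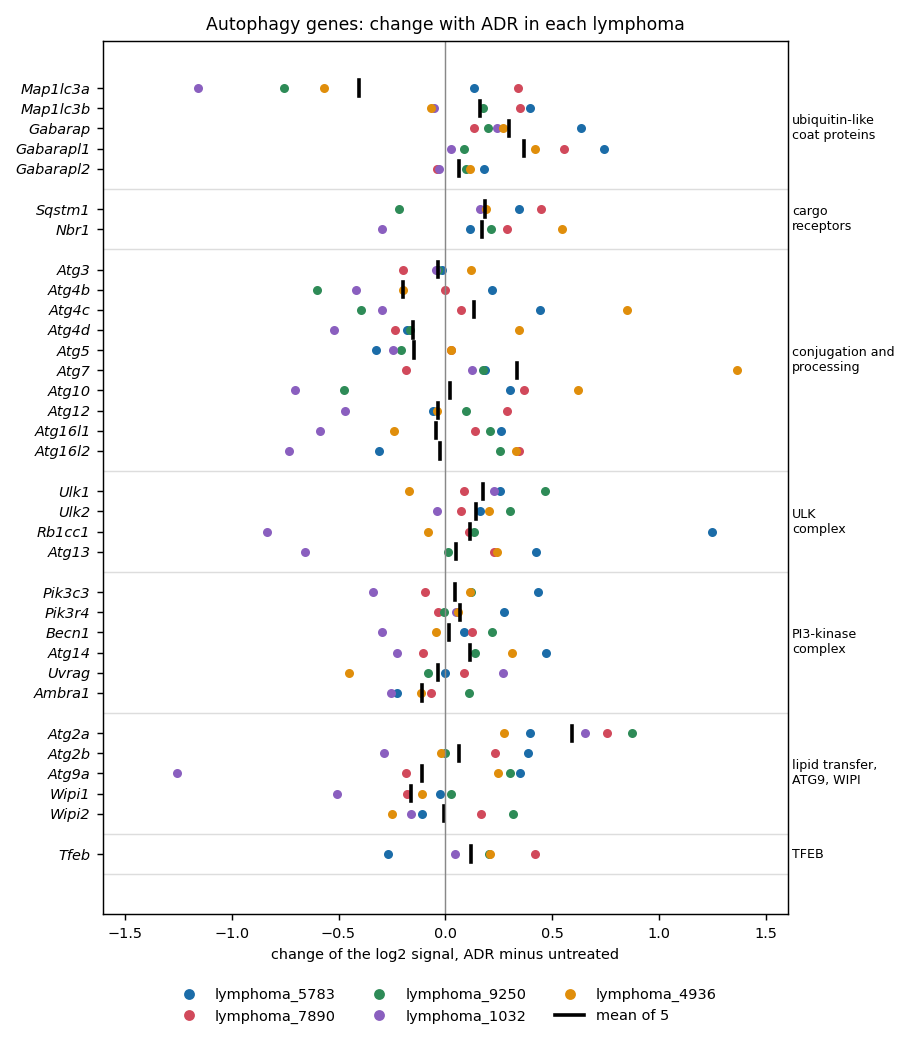
Change of the log2 signal (ADR minus untreated, horizontal axis) of the 33 autophagy genes, grouped by role; each point is a lymphoma and the black bar is the mean of 5. Atg2a, Gabarap and Gabarapl1 have all 5 points to the right of 0, and most other genes have points on both sides.

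In the values as deposited, the median change of the autophagy genes was below 0 in lymphoma_1032 and above 0 in the other lymphomas. The whole ADR array of lymphoma_1032 was lower too, with a median signal of 4.15 against 4.44 untreated. In lymphoma_5783 the signal was higher with ADR for 23 of 33 genes, with a median change of 0.22, and in lymphoma_7890 for 23 of 33, with a median of 0.11. Lymphoma_9250 had 22 of 33 higher and a median of 0.11, and lymphoma_4936 20 of 33 and 0.12. In lymphoma_1032 only 9 of 33 were higher, with a median of -0.25. All genes tested had medians of 0.04, -0.01, -0.02 and 0.06 in those 4 lymphomas and of -0.17 in lymphoma_1032, with 34.4% higher there. The change in lymphoma_1032 was the lowest of the 5 for 18 of 33 autophagy genes, as it was for 38.3% of all genes. Without lymphoma_1032 the mean change was above 0 for 25 of 33, against 52.8% of all genes, and the median was 0.15. Without lymphoma_5783 it was above 0 for 17 of 33, against 41.4%, with a median of 0.00089. With each array centred on its median, 26 of 33 were above 0, as were 61.0% of all genes. Medians per lymphoma were not computed on that scale, so the contrast of lymphoma_1032 with the others holds for the deposited values alone. Without lymphoma_5783 and lymphoma_1032, the pair with the largest change of tested macrophage markers, 25 of 33 were above 0, against 51.1% of all genes, and the median was 0.11.

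**Figure D2:**
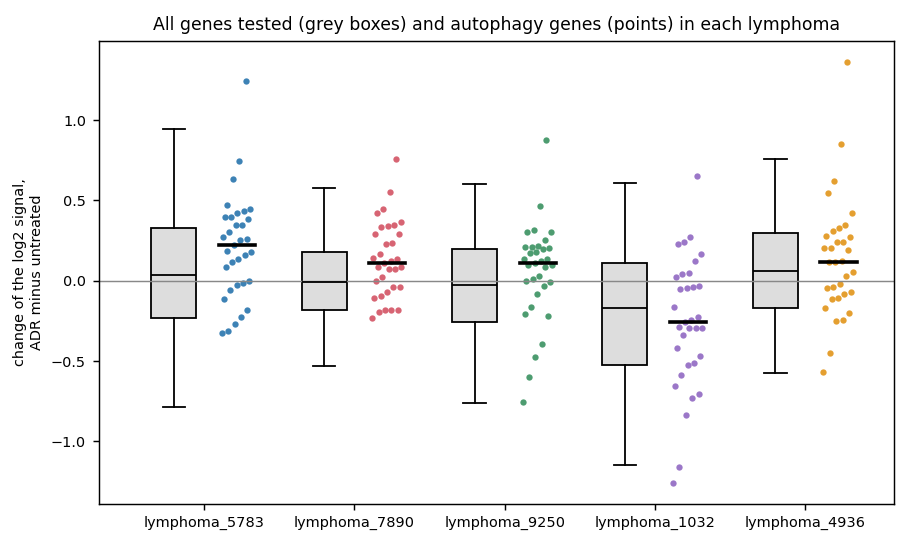
Change of the log2 signal (vertical axis) in each lymphoma for all 11472 genes tested (grey boxes: quartiles and median, whiskers from the 5th to the 95th percentile) and the 33 autophagy genes (points, with their median as a black bar). The points of lymphoma_1032 have a median of -0.25, where the box of all genes has -0.17, and the medians of the other lymphomas lie between 0.11 and 0.22.

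Of the 5 genes for ubiquitin-like proteins that coat the autophagosome, 4 had a mean change above 0 and Map1lc3a one below, and 0 of 5 passed the test. Values over the 5 lymphomas are given here and below in the order lymphoma_5783, lymphoma_7890, lymphoma_9250, lymphoma_1032 and lymphoma_4936. Gabarap, which encodes the founding member of its branch, had log2 signals of 10.27, 10.25, 9.63, 10.95 and 9.69 untreated and of 10.90, 10.39, 9.83, 11.20 and 9.96 with ADR. All 5 lymphomas were higher, and the differences between tumours exceeded those between treatments. On average it was 0.30 higher (SD 0.20, n = 5), with an adjusted p of 0.569 in limma. Lymphoma_5783 contributed the highest change, 0.63, and without it the mean was 0.21.

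Gabarapl1, its close paralogue, had signals of 8.49, 8.36, 8.31, 9.44 and 8.96 untreated and of 9.24, 8.91, 8.39, 9.47 and 9.38 with ADR. The change was 0.74, 0.55 and 0.42 in lymphoma_5783, lymphoma_7890 and lymphoma_4936, and 0.08 and 0.02 in lymphoma_9250 and lymphoma_1032. Its mean was 0.37 ± 0.31 (SD, n = 5; adjusted p = 0.565 in limma). A second probe set of Gabarapl1 changed by 0.76, 0.53, -0.14, -0.18 and 0.52, so the probe sets differed in sign in lymphoma_9250 and lymphoma_1032. Gabarapl2, the third member of the branch, had a mean change of 0.06 ± 0.10 (SD, n = 5).

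Map1lc3a and Map1lc3b encode LC3A and LC3B, of which LC3B is the usual marker protein of autophagosomes. Map1lc3a had signals of 8.03, 7.44, 7.50, 7.28 and 8.70 untreated and of 8.16, 7.78, 6.75, 6.12 and 8.13 with ADR. It was lower in lymphoma_9250, lymphoma_1032 and lymphoma_4936 and higher in the other pair. The mean change was -0.40 ± 0.62 (SD, n = 5; adjusted p = 0.621 in limma), -0.21 without lymphoma_1032 and -0.59 without lymphoma_7890. The probe set used has an ID of the kind that Affymetrix gives to probes with matches in other transcripts, and the second probe set of Map1lc3a had a mean change of -0.20. Map1lc3b had signals of 10.63, 10.46, 10.40, 10.88 and 10.65 untreated and of 11.02, 10.81, 10.58, 10.82 and 10.58 with ADR. It was higher in 3 of 5 lymphomas and moved by -0.05 and -0.07 in the others. Its mean change was 0.16 ± 0.22 (SD, n = 5; adjusted p = 0.695 in limma), and further probe sets above the filter on all arrays gave 0.12 and 0.13. It was 0.10 without lymphoma_5783.

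**Figure D3:**
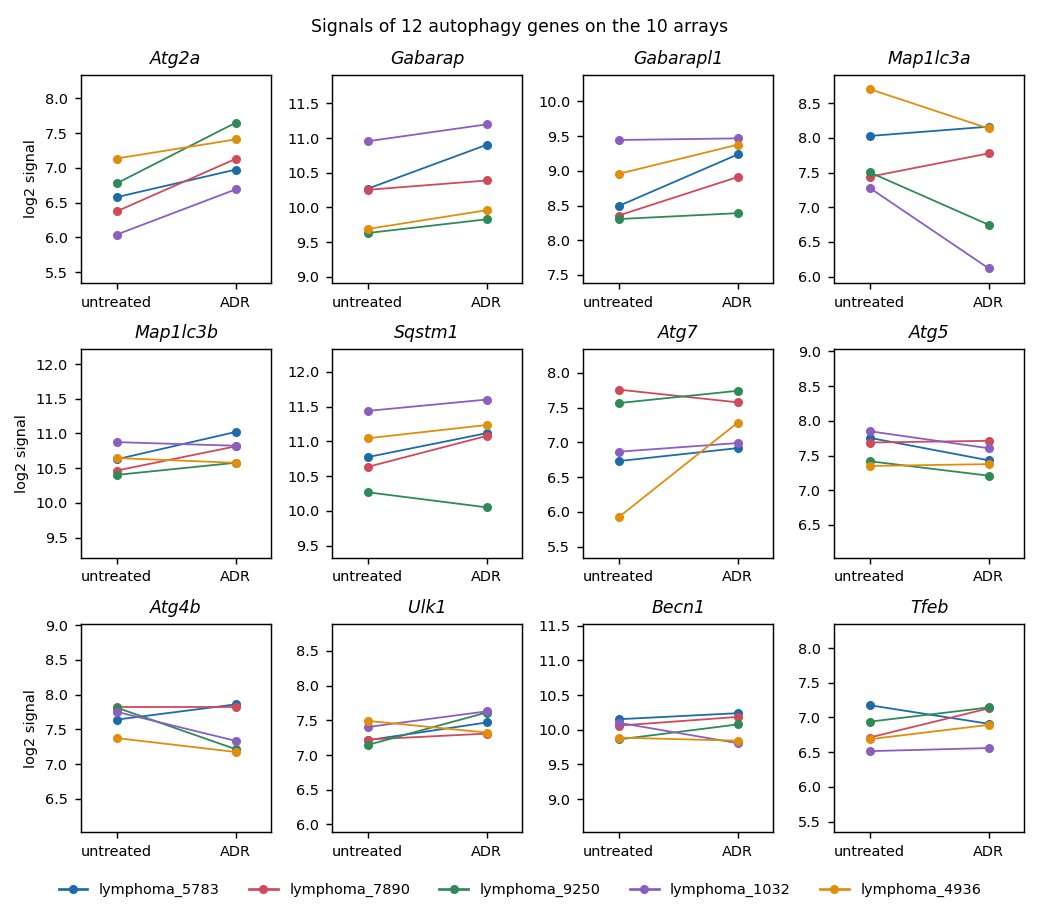
Log2 signals (vertical axes, each spanning 3 log2 units) of 12 autophagy genes in untreated and ADR cells; each line joins the arrays of a lymphoma. All 5 lines of Atg2a, Gabarap and Gabarapl1 go up, and the Atg7 line of lymphoma_4936 starts at 5.92 and ends at 7.28.

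The cargo receptors bind ubiquitin and LC3 and are themselves degraded with the cargo. Sqstm1, which encodes p62, had signals of 10.77, 10.63, 10.27, 11.44 and 11.05 untreated and of 11.12, 11.08, 10.05, 11.60 and 11.24 with ADR. It was higher in 4 of 5 lymphomas and lower in lymphoma_9250, which also had its lowest untreated signal. Sqstm1 had a mean change of 0.19 ± 0.25 (SD, n = 5; adjusted p = 0.672 in limma), 0.29 without lymphoma_9250 and 0.12 without lymphoma_7890. Its second probe set had a mean change of -0.02, and the mean of the probe sets gave 0.08. Nbr1, a related receptor, had a mean change of 0.17 ± 0.31 and was lower in lymphoma_1032 alone, with a change of -0.30.

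The largest mean change was that of Atg2a, a lipid transfer protein that feeds the growing membrane. Its signal was 6.58, 6.37, 6.78, 6.04 and 7.13 untreated and 6.97, 7.13, 7.65, 6.69 and 7.41 with ADR. The signal was higher with ADR in 5 of 5 lymphomas, by 0.40, 0.76, 0.87, 0.65 and 0.28. Still, the untreated signal of lymphoma_4936 was above the ADR signals of lymphoma_5783, lymphoma_1032 and, narrowly, lymphoma_7890 (7.135 against 7.129). The mean change of Atg2a was 0.59 ± 0.25 (SD, n = 5), with a 95% interval of 0.29 to 0.89 that takes no account of the number of genes. Atg2a ranked 31 of 11472 genes by p (unadjusted p = 0.00204 and adjusted p = 0.565, both in limma). A change of 1 sign in all 5 lymphomas was found for 3 of 33 autophagy genes, against 9.49% of all genes. All 3 were higher, against 4.67% of all genes, and 0 of 33 were lower, against 4.82%. Only 1 of 33 had a mean change of 0.5 or more in size, against 5.95% of all genes.

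The other proteins of that step had changes on both sides of 0. Atg2b, the paralogue of Atg2a, had a mean change of 0.06 ± 0.26 (SD, n = 5). Atg9a, the lipid scramblase, had -0.11 ± 0.68, with -1.26 in lymphoma_1032 and -0.18 to 0.35 elsewhere. The PI3P-binding Wipi1 and Wipi2 had mean changes of -0.16 ± 0.21 and -0.01 ± 0.24. A second probe set of Wipi1, above the filter on all 10 arrays, had a mean change of -0.41.

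Of the 10 genes of conjugation and LC3 processing, 3 had a mean change above 0 and 7 below. Atg7, the E1-like enzyme that activates both ATG12 and LC3, had signals of 6.73, 7.76, 7.57, 6.87 and 5.92 untreated and of 6.92, 7.58, 7.74, 6.99 and 7.28 with ADR. Its mean change of 0.33 ± 0.59 (SD, n = 5; adjusted p = 0.657 in limma) came mostly from lymphoma_4936, where the untreated signal was the lowest and the change was 1.36. Without lymphoma_4936 the mean change was 0.08. The other probe sets of Atg7 above the filter on all 10 arrays had mean changes of 0.06 and 0.02, with 0.38 and 0.60 in lymphoma_4936.

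Atg5, the partner that ATG12 is attached to, had signals of 7.75, 7.69, 7.42, 7.85 and 7.35 untreated and of 7.43, 7.71, 7.21, 7.60 and 7.38 with ADR. It was lower in 3 lymphomas and within 0.03 of the untreated signal in lymphoma_7890 and lymphoma_4936. Atg5 had a mean change of -0.15 ± 0.16 (SD, n = 5; adjusted p = 0.696 in limma), and its further probe sets gave -0.09 and -0.08. Atg4b, the main protease that trims LC3, had signals of 7.64, 7.82, 7.81, 7.75 and 7.37 untreated and of 7.86, 7.82, 7.21, 7.33 and 7.17 with ADR. Lymphoma_9250 and lymphoma_1032 were lower by the most (changes of -0.60 and -0.42), and the mean change was -0.20 ± 0.33 (adjusted p = 0.683 in limma). It was -0.10 without lymphoma_9250, and a second probe set had a mean change of -0.01.

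The proteases Atg4c and Atg4d had mean changes of 0.14 ± 0.52 and -0.15 ± 0.31 (SD, n = 5). The E2-like enzymes Atg3 and Atg10 had -0.03 ± 0.11 and 0.02 ± 0.58; Atg10 moved by -0.70 in lymphoma_1032 and by 0.62 in lymphoma_4936. Atg12 had -0.04 ± 0.28, and the ATG5-binding scaffold genes Atg16l1 and Atg16l2 had -0.04 ± 0.36 and -0.02 ± 0.48. A second probe set of Atg12, above the filter on all 10 arrays, had a mean change of -0.43 and was lower in 4 of 5 lymphomas.

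With the probe sets used, the 4 genes of the ULK complex all had a mean change above 0, of which 0.17 was the highest. Over all genes 44.8% had one above 0. In lymphoma_1032 1 of 4 was higher and in lymphoma_4936 2 of 4, against 34.4% and 56.4% of all genes. Ulk1, the kinase that receives the signals of mTORC1 and AMPK, had signals of 7.21, 7.22, 7.14, 7.40 and 7.49 untreated and of 7.47, 7.31, 7.61, 7.63 and 7.32 with ADR. It was higher in 4 of 5 lymphomas and lower in lymphoma_4936. For Ulk1 the mean change was 0.17 ± 0.23 (SD, n = 5; adjusted p = 0.682 in limma), 0.26 without lymphoma_4936 and 0.10 without lymphoma_9250. The second probe set of Ulk1 had a mean change of -0.05 with a value of -1.21 in lymphoma_1032. Ulk2, its paralogue, had a mean change of 0.14 ± 0.13, and its other probe sets above the filter had -0.40 and -0.18. Rb1cc1, which encodes the scaffold FIP200, had 0.11 ± 0.74, with 1.25 in lymphoma_5783 and -0.83 in lymphoma_1032. Its second probe set above the filter had a mean change of -0.15. Atg13, the adaptor of the complex, had 0.05 ± 0.42.

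Of the 6 class III PI3-kinase genes, 4 had a mean change above 0. Over the untreated lymphomas the SD was 0.11 to 0.13 for Pik3r4, Becn1, Atg14 and Ambra1, 0.28 for Uvrag and 0.44 for Pik3c3, against a median of 0.28 for all 33 and of 0.35 for all genes tested. Becn1, which encodes Beclin 1, had signals of 10.15, 10.06, 9.86, 10.10 and 9.89 untreated and of 10.24, 10.18, 10.08, 9.81 and 9.84 with ADR. It was higher in 3 of 5 lymphomas, and its mean change of 0.02 ± 0.20 (SD, n = 5; 95% interval -0.26 to 0.29; adjusted p = 0.973 in limma) lay within the spread. The catalytic subunit gene Pik3c3 had 0.05 ± 0.29, the regulatory subunit gene Pik3r4 0.07 ± 0.12, and Atg14, which directs the complex to autophagosomes, 0.12 ± 0.29. Uvrag, of the complex that acts on endosomes, had -0.04 ± 0.27 and the Beclin 1 cofactor Ambra1 -0.11 ± 0.15.

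Tfeb had signals of 7.18, 6.71, 6.94, 6.52 and 6.69 untreated and of 6.91, 7.13, 7.14, 6.56 and 6.89 with ADR. It was higher in 4 of 5 lymphomas and lower in lymphoma_5783, which had the highest untreated signal. Tfeb had a mean change of 0.12 ± 0.25 (SD, n = 5; adjusted p = 0.777 in limma), 0.22 without lymphoma_5783 and 0.05 without lymphoma_7890.

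Probe sets of the same gene did not always give the same sign. Of the 33 genes 19 had more than 1 probe set above the filter on at least 5 arrays, and for 13 of these all of them had mean changes of 1 sign. The exceptions were Ambra1, Becn1, Rb1cc1, Sqstm1, Ulk1 and Ulk2. Their mean changes were below 0.2 in size for the probe sets used, while others reached -0.40 for Ulk2 and 0.25 for Ambra1. Atg2a and Gabarap had 1 probe set each, so no second reading was at hand for them.

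**Figure D4:**
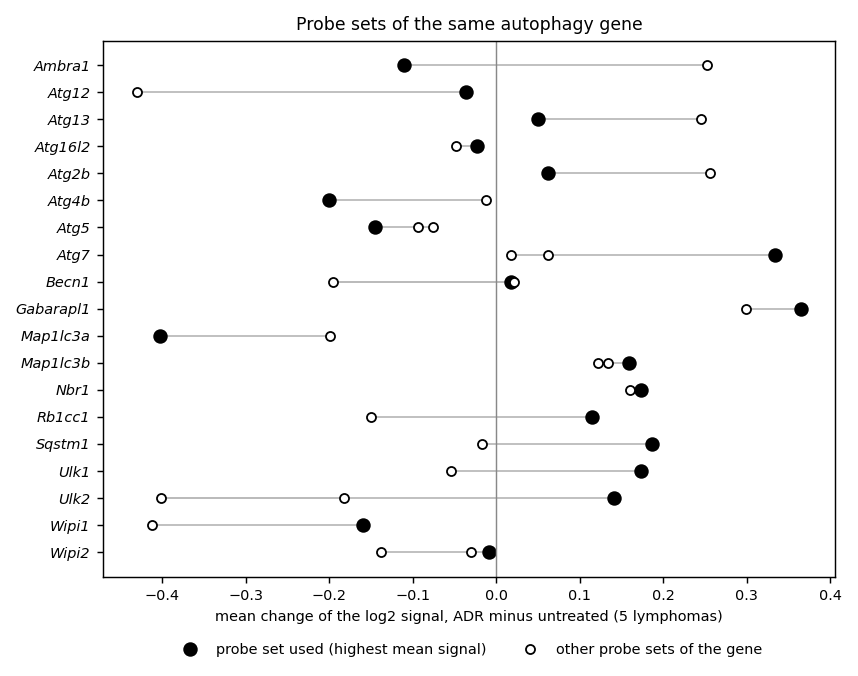
Mean change of the log2 signal over 5 lymphomas (horizontal axis) for each probe set above the filter on at least 5 arrays, in the 19 autophagy genes with more than 1; filled points are the probe sets used and open points the others. The probe sets of Map1lc3b and Gabarapl1 lie to the right of 0, those of Map1lc3a and Atg5 to the left, and those of Ulk2 on both sides.

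A list of 80 other genes of autophagy and of its nutrient-sensing control, 76 of them tested, gave 0 calls in limma. An unadjusted p below 0.05 in limma was found for 7 of 76, against 8.48% of all genes. Of these 5 were higher and 2 lower, against 3.97% and 4.52% of all genes. The median of the mean changes of the 76 was 0.04, against -0.02 over all genes. A higher signal in all 5 lymphomas was found for 5 of 76, against 4.67% of all genes. A lower one was found for 0 of 76, against 4.82%. Those with the smallest p among the 5 were Ei24, an endoplasmic reticulum protein needed for autophagy, with a mean change of 0.35 ± 0.24 (SD, n = 5), Lamtor4 and Lamtor3, subunits of the Ragulator that holds mTORC1 at the lysosome, with 0.30 ± 0.14 and 0.19 ± 0.23, and Epg5, a tether for fusion with the lysosome, with 0.34 ± 0.39. The mean of Lamtor3 was 0.08 without lymphoma_5783, where the change was 0.60. The Epg5 values were 0.78 and 0.75 in lymphoma_5783 and lymphoma_1032, and at most 0.10 in the other lymphomas. In that pair tested macrophage markers changed on average by 1.24 and 1.10, and all 16 by 0.22 and 0.61. Tested fibroblast and neutrophil markers were also higher there on average. A part of such cells in the Epg5 values was not tested.

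By role, 13 of 24 other core and fusion genes, 7 of 12 other receptors, 14 of 29 genes of mTORC1 and AMPK signalling, 5 of 5 transcription factor genes and 6 of 6 p53 targets linked to autophagy had a mean change above 0, and 0 of each passed. Over all genes the mean change was above 0 for 44.8%. The direction was not shared by all lymphomas. In lymphoma_1032 2 of 5 transcription factor genes and 2 of 6 p53 targets were higher, against 34.4% of all genes there. In lymphoma_4936 these counts were 2 of 5 and 3 of 6, against 56.4% of all genes. In each other lymphoma they were at least 4 of each list, against 47.0% to 53.7% of all genes. The next 3 genes were chosen with their values in view. Bnip3, a mitochondrial receptor that is also a hypoxia target, had a mean change of -1.04 ± 0.83 (SD, n = 5; adjusted p = 0.565 in limma) and was lower in 4 of 5 lymphomas, with 0.18 in lymphoma_7890. Rragd, a Rag GTPase that activates mTORC1 at the lysosome, had -0.71 ± 0.60, also lower in 4 of 5. Atg4a, a protease that acts on GABARAP proteins, had 0.62 ± 0.52 and was higher in 4 of 5, with -0.24 in lymphoma_4936. As the mean of its 2 probe sets the change of Atg4a was 0.25.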

How the data were processed

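RNA of 10 samples was measured on Affymetrix mouse arrays. The authors deposited 1 log2 signal per probe set and array; the submitters' processing notes name RMA and Partek. Versions and settings were not given in the sources used here. That the scale is log2 was read from the range of the values, and nothing further was normalized. The platform annotation gave 34945 of 45101 probe sets 1 gene symbol, 932 several and 9160 none. The fit used limma 3.58.1 in R 4.3.3 with the lymphoma as a block; p-values are two-sided and Benjamini-Hochberg adjusted over 11472 genes, with a threshold of 0.05. Precision is limited by there being 5 arrays per group. Pairs come from the lymphoma number in the labels; across genes, arrays of a pair had correlated deviations from their group means (0.51 to 0.79). Genes given with all 10 values were those with 1 sign in all 5 lymphomas, the 6 smallest p, the 6 largest changes, and Ulk1, Becn1, Atg5, Map1lc3b, Sqstm1 and Tfeb. Other pathway genes named by rule, with summary values, were the 4 with the smallest p of those with 1 sign. Members, lists and this rule were chosen with earlier results of these data known. The fit was tested on simulated data. Alternatives were no block, 2 other filters, 2 other choices of probe set, 2 normalizations, another variance prior, array weights and the omission of each lymphoma; the omission of lymphoma_5783 with lymphoma_1032 was chosen after seeing the data. Tables and plots used Python 3.11.15, pandas 2.3.3 and matplotlib 3.10.9.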

Additional observations from a re-analysis of the deposited data

Results flagged for a closer look

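In 5 of 99 groups of 5 values (untreated, ADR and change of each of the 33 genes) 1 lymphoma stood apart from the others by more than Dixon's 95% critical value of 0.71 allows; chance alone flags about 1 in 20. The change of Gabarap was 0.63 in lymphoma_5783 and 0.13 to 0.27 in the others. The change of Atg7 was 1.36 in lymphoma_4936 and -0.18 to 0.19 in the others. The untreated signal of Gabarapl2 was 9.79 in lymphoma_1032 and 9.13 to 9.30 in the others. The untreated signal of Atg3 was 9.33 in lymphoma_4936 and 9.77 to 9.93 in the others. The ADR signal of Atg13 was 6.68 in lymphoma_1032 and 7.22 to 7.38 in the others.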

How the results depend on the processing

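The count of genes called was 0 in limma in every setting run, with 262 (no replicate block) to 1446 (without lymphoma_4936) genes at an unadjusted p below 0.05 and a smallest adjusted p of 0.153 to 1.00. Without the pairing, 0 of 11472 genes and 0 of 33 autophagy genes were called, and 1 of 33 had an unadjusted p below 0.05; without lymphoma_5783 and lymphoma_1032 it was also 1 of 33. The median change of the autophagy genes was between 0.02 and 0.13 in the settings that keep all lymphomas and between 0.00089 and 0.15 when 1 was left out. Of the genes with all 10 values given, Atg2a had changes of 0.52 to 0.67 when 1 lymphoma was left out, Gabarap of 0.21 to 0.34 and Gabarapl1 of 0.27 to 0.45, and only Becn1 turned in direction, with -0.0011 for the mean of all probe sets and -0.031 to 0.096 when 1 lymphoma was left out; the cause was not tested. Other autophagy genes whose direction turned in some setting had a mean change of at most 0.14 in size. The stricter filter left 30 of 33 genes and the mean of all probe sets 32. With that mean, 2 of 32 autophagy genes had an unadjusted p below 0.05 in limma. With probe sets whose IDs end in s_at or x_at taken last, it was also 2 of 32. The probe set used for Gabarapl1 has such an ID.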
